A study of Homo sapiens with 34 samples.

Results

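SNU398 is a cell line from a human hepatocellular carcinoma, and it was sampled on Illumina expression arrays after transient exposure to SGI-110, a prodrug of the DNA methyltransferase inhibitor decitabine. The comparison described here sets the 2 arrays of SNU398 at day 10 against the 2 arrays of SNU398 at day 3, and these 4 arrays were chosen by their titles out of 34 in the series. Cells of both days had received 100 nM SGI-110 on 3 consecutive days, an exposure of 72 h in all, so day 3 lies at the end of the exposure and day 10 lies 1 week later in culture. Further arrays, 2 per group, cover untreated SNU398, SNU398 at days 17 and 24, and HepG2 and SNU475, 2 other liver cancer lines given the same exposure. No untreated SNU398 array was taken at day 3 or day 10, so time in culture and time since the drug cannot be told apart. The labels do not say whether replicate arrays hold separate cultures, so the p-values reflect how far these samples spread, and that spread may be technical. As bulk RNA of 1 established line, the arrays also cannot tell a smaller share of cells expressing a gene from less RNA per cell.

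Drugs of this class are built into DNA during replication, trap the maintenance methyltransferase DNMT1 on it and cause its loss, and methylation is then diluted as cells divide. Transcripts that depend on demethylation, such as those of cancer-testis genes, therefore tend to accumulate over several divisions, while DNA damage, slowed division and interferon signalling from transcribed repeats are described after the same drugs. Amino acid limitation and stress of the endoplasmic reticulum act through the transcription factor ATF4, which raises genes of amino acid supply and of the stress response.

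A level below is a normalized log2 intensity, and a difference is the log2 fold change of day 10 over day 3 with the standard error of the fit, n = 2 arrays on each day. Adjusted p-values are two-sided from limma with Benjamini-Hochberg adjustment over 15297 genes. A group counts as above background where both its arrays exceed 6.974, and where 1 day is below that level the fold is given as a bound. At an adjusted p under 0.05, 2947 genes (19.3%) were higher and 2263 (14.8%) lower at day 10. At least 2-fold changes were found in 466 genes upward (3.05%) and 269 downward (1.76%), at least 4-fold changes in 62 and 13, and at least 8-fold changes in 13 and 0. In all 466 and all 269 genes the arrays of the 2 days did not overlap, which held for 63% of all genes tested. Of the 466, 96 were not above background at day 3, and 76 of these were not above background in untreated cells either. Of the 269, 18 were not above background at day 10.

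INHBE, which encodes the inhibin beta E chain made by liver, led the rises. It read 12.22 and 12.01 at day 10, against 7.27 and 7.40 at day 3, a difference of 4.78±0.13 or 27.4-fold (adjusted p = 5.24e-21). DDIT4, an inhibitor of the growth kinase mTORC1, read 14.07 and 14.10 at day 10, against 10.12 and 10.12 at day 3, a difference of 3.97±0.11 or 15.6-fold (adjusted p = 1.44e-20). Both genes showed a gap between days many times the gap between replicate arrays. The 15 largest rises also held 4 genes of the VCX family of the X chromosome, the transcription factor gene JUN, the stress-inducible chromatin protein gene NUPR1, the interferon-responsive gene IFI27 and the glutathione-degrading enzyme gene CHAC1. Among the 15 largest falls, the mitotic kinesin gene KIF20A read 9.34 and 9.24 at day 10, against 11.66 and 11.78 at day 3, a difference of -2.43±0.12 (adjusted p = 3.14e-15). The falls also included the kinesin genes KIF11 and KIFC1, the cyclin gene CCNA2, the DNA topoisomerase gene TOP2A and RRM2, a subunit of ribonucleotide reductase. The largest fitted falls were those of the pseudogene NBEAP1, which read 8.47 and 8.52 at day 10, against 11.68 and 11.25 at day 3 (-2.97±0.17), and of a probe annotated to the microRNA gene MIR599 (-2.83±0.15). Of these 30 genes, 9 had another probe that passed the background filter, and no such probe went the other way. Over all named genes that passed the test, 50 had another such probe, and in 19 of them such a probe read under 50% of the change or the opposite sign.

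**Figure D1:**
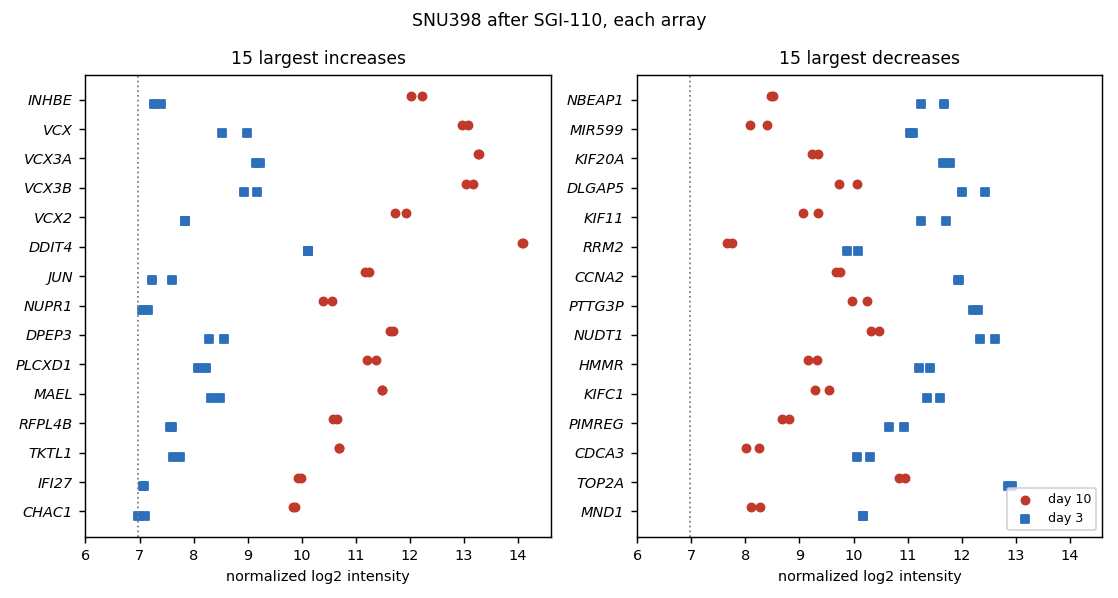
Normalized log2 intensity of each array for the 15 largest rises (left) and the 15 largest falls (right), with red circles for day 10, blue squares for day 3 and a dotted line at the background level of 6.974. In each of the 30 genes both day 10 arrays lie on 1 side of both day 3 arrays, as the rule that chose them required. INHBE shows the widest gap, 4.78 on the log2 scale.

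Genes of amino acid supply and the unfolded protein response rose together. Of 22 measured genes on the list of ATF4 and endoplasmic reticulum stress genes, 21 were higher at day 10, 0 were lower and 1 did not pass, against 19.3% and 14.8% of all genes. The median difference of the list was 1.50, and that of all genes was 0.03. TRIB3, a pseudokinase gene induced by ATF4, read 14.42 and 14.36 at day 10, against 11.70 and 11.99 at day 3 (2.55±0.13, adjusted p = 5.35e-15). DDIT3, which encodes the stress transcription factor CHOP, read 12.66 and 12.86 at day 10, against 10.61 and 10.61 at day 3 (2.15±0.13). CHAC1 read 9.83 and 9.88 at day 10, against 6.97 and 7.09 at day 3, where it was not above background on both arrays, a rise of at least 7.07-fold. The list reaches from DDIT4 at the top to the mild rises of HSPA5 (0.57±0.12), the main chaperone of the endoplasmic reticulum, and SHMT2, a mitochondrial enzyme of serine use. Enzymes of amino acid synthesis rose, among them ASNS for asparagine (1.66±0.12) and PSAT1 for serine (1.93±0.12), as did SESN2 (2.53±0.13), a sensor that restrains mTORC1. The member that did not pass was SLC7A11, the cystine carrier, at 9.62 and 9.66 on day 10, against 9.37 and 9.43 on day 3 (0.24±0.15, adjusted p = 0.224). GDF15, a circulating stress hormone that both ATF4 and p53 can induce, read 11.89 and 11.87 at day 10, against 9.09 and 9.04 at day 3 (2.81±0.16).

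Many genes of this response carry a composite C/EBP-ATF element in their promoters, searched here as TGATGNAA on both strands in the 300 bases that run from 250 before to 50 after the RefSeq gene start. It was found in 4 of 19 promoters of the list (21.1%) and in 2.16% of the promoters of 11969 genes tested. The promoters of CHAC1 (chr15:40953221-40953520, plus strand) and ASNS (chr7:97872359-97872658, minus strand), both of assembly GRCh38.p14 and from RefSeq, are shown because both genes rose and carry the element, which is in capitals and lies 209 and 68 bases before the gene start. In CHAC1 it is read on the opposite strand. A match describes the letters only, and binding was not measured.
CHAC1: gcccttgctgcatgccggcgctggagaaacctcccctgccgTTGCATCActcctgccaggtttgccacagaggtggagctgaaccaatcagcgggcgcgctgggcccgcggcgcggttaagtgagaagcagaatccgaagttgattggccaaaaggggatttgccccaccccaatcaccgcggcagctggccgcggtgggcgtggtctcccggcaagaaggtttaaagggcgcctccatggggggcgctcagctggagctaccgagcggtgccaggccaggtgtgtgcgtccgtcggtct
ASNS: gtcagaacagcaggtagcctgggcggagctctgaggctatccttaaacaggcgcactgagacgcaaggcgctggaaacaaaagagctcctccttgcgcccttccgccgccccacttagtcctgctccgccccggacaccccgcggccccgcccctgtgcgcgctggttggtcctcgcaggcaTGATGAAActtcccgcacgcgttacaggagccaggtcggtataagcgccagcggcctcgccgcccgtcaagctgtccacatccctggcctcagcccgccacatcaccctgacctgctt

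Immediate early genes, which cells switch on within minutes of a stimulus, showed 16 of 25 measured members higher, 1 lower and 8 not passing, against 19.3% and 14.8% of all genes, and the median was 0.56. JUN read 11.17 and 11.24 at day 10, against 7.23 and 7.60 at day 3 (3.79±0.15, adjusted p = 1.28e-17). FOSB read 11.80 and 11.63 at day 10, against 9.14 and 9.15 at day 3 (2.57±0.16). FOS, which like FOSB encodes a subunit of the AP-1 factor, differed by 1.83±0.12. Untreated cells, whose arrays belong to another set of the deposited values, averaged 12.48 for FOSB, 13.18 for FOS and 9.95 for JUN. Day 10 thus lay below the untreated level for FOSB and FOS and above it for JUN. The member that fell was DUSP6, a phosphatase gene that damps ERK signalling, which read 12.03 and 11.88 at day 10, against 13.22 and 12.57 at day 3 (-0.94±0.15).

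Genes of cell division fell as a block. Of 39 measured mitosis and proliferation genes, 0 were higher, 38 were lower and 1 did not pass, against 14.8% lower among all genes, and 36 fell at least 2-fold. The median difference was -1.48, and the median level over members was 9.73 and 9.79 on the day 10 arrays, against 11.59 and 11.42 on the day 3 arrays. CCNA2, the cyclin of S phase and G2, read 9.74 and 9.67 at day 10, against 11.93 and 11.95 at day 3 (-2.23±0.11, adjusted p = 5.66e-15). The kinase gene PLK1 read 7.59 and 7.74 at day 10, against 9.63 and 9.59 at day 3 (-1.95±0.14). The proliferation marker MKI67 differed by -1.44±0.16 and the cyclin gene CCNB2 by -1.48±0.12. CKS2, a small subunit of the cyclin-dependent kinases, was the exception at 13.63 and 13.63 on day 10, against 13.55 and 13.52 on day 3 (0.09±0.15, adjusted p = 0.685). PTTG3P (-2.14±0.16) is a pseudogene of the securin gene, and whether its probe reads securin transcripts was not tested.

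Promoters of late cell cycle genes often hold a cell cycle genes homology region, TTTGAA, near the start of transcription. Searched on both strands in the same 300 bases, it was present in 22 of 33 promoters of the mitosis list (66.7%), against 10.8% of the promoters of genes tested, and a CCAAT box was present in 26 of 33 (78.8%), against 36.7%. CKS2 holds TTTGAA as well, 29 bases before the gene start, so the list member that did not change shares the letters and their place. The promoters of KIF11 (chr10:92592880-92593179), CCNB2 (chr15:59104896-59105195), PLK1 (chr16:23678639-23678938) and HMMR (chr5:163460382-163460681), all on the plus strand of GRCh38.p14 and from RefSeq, are shown because the motif, in capitals, sits in nearly the same place in genes that fell. It begins 28 or 29 bases before the gene start in each, as in CKS2. HMMR has a second copy 22 bases before the start, and in KIF11 the motif is read on the opposite strand. Other genes that fell hold it elsewhere, as TOP2A does at 194 and 151 bases before the start.
KIF11: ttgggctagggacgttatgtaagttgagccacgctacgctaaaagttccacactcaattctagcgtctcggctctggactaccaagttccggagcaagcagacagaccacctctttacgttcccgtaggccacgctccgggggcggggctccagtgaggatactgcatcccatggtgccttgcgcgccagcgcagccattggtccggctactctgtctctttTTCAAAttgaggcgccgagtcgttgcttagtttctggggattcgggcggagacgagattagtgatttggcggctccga
CCNB2: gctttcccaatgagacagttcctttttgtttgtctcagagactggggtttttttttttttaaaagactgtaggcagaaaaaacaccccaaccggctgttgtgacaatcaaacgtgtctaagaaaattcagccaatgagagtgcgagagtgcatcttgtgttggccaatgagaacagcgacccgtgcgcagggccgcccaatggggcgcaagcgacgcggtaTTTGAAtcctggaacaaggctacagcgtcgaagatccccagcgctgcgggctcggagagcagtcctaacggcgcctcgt
PLK1: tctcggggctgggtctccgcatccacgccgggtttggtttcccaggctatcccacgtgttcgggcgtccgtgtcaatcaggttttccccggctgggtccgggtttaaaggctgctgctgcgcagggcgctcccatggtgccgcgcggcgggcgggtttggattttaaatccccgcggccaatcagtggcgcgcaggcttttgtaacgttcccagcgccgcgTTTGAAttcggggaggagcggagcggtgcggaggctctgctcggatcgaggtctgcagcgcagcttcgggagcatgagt
HMMR: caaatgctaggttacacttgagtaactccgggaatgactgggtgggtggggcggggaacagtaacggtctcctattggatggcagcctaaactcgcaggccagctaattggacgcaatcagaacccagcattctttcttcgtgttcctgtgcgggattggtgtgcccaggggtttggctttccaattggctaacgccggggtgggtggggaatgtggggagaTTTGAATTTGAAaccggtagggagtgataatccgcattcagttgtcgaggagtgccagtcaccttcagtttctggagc
KIF11, the motor that pushes spindle poles apart, read 9.07 and 9.34 at day 10, against 11.70 and 11.25 at day 3 (-2.27±0.15). HMMR, a spindle protein and hyaluronan receptor, read 9.16 and 9.31 at day 10, against 11.21 and 11.41 at day 3 (-2.07±0.13).

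DNA replication and nucleotide synthesis genes followed, with 0 of 36 measured higher, 30 lower and 6 not passing, against 14.8% lower among all genes, and a median of -0.75. RRM2 read 7.67 and 7.75 at day 10, against 10.07 and 9.88 at day 3 (-2.27±0.18, adjusted p = 7.35e-11), which placed both day 10 arrays close to background. The thymidylate synthase gene TYMS read 10.79 and 11.04 at day 10, against 12.91 and 12.66 at day 3 (-1.87±0.12), and the primase gene PRIM1 differed by -1.90±0.15. Replication histone genes went the other way, with 13 of 15 measured higher, 1 lower and 1 not passing, against 19.3% and 14.8% of all genes, and a median of 1.18. Their transcripts normally end in a stem-loop without a poly(A) tail, so a method that primes on poly(A) reads mostly polyadenylated forms. H2AC18 read 12.27 and 12.29 at day 10, against 9.82 and 10.13 at day 3 (2.31±0.15). H4C8 read 11.53 and 11.48 at day 10, against 9.10 and 9.46 at day 3 (2.23±0.16). The histone gene that fell was H4C3, at 14.59 and 14.46 on day 10, against 14.87 and 15.19 on day 3 (-0.51±0.14). Histone genes are near copies of each other, and cross-hybridisation between them was not tested.

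The genes of DNA methylation itself were mostly lower or did not pass. Of 14 measured, 1 was higher, 8 were lower and 5 did not pass, against 19.3% higher and 14.8% lower among all genes, and the median was -0.45. DNMT1, the maintenance enzyme that the drug traps, read 13.39 and 13.04 at day 10, against 13.79 and 13.72 at day 3 (-0.54±0.13, adjusted p = 0.00216), and without day 10 replicate 2 limma's adjusted p was 0.0837. DNMT3B, a de novo enzyme, differed by -0.66±0.12 (-0.08 on another probe), UHRF1, which brings DNMT1 to newly copied DNA, by -0.66±0.14 and the chromatin remodeller gene HELLS by -1.25±0.13. DNMT3A was not above background at day 10, at 6.99 and 6.67, against 7.30 and 7.32 at day 3. Its fall was at least 1.26-fold (adjusted p = 0.0126), and leaving out day 10 replicate 2, day 3 replicate 1 or day 3 replicate 2 gave adjusted p-values of 0.192, 0.0521 and 0.0541. The gene that rose was GADD45A (1.17±0.15), a stress gene tied to DNA repair and demethylation. Several of these genes are also expressed in S phase, and the mitosis list fell over the same interval (median -1.48). Whether these falls are linked was not tested. Over untreated cells, whose arrays belong to another set of the deposited values, the median of the methylation list was 0.38 at day 3. At day 10 it was -1.7e-05, so its falls ended near the untreated level, while the mitosis median was -1.39 over untreated. Day 10 over untreated was -0.07 for DNMT1, 0.18 for DNMT3B, -0.03 for UHRF1 and 0.03 for HELLS.

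Germline and cancer-testis genes are silenced by promoter methylation in most adult tissues. Of 61 measured, 37 were higher at day 10 (60.7%), 5 lower (8.2%) and 19 did not pass, against 19.3% and 14.8% of all genes, and the median was 0.80. VCX3A, a member of the VCX family expressed in male germ cells, read 13.27 and 13.26 at day 10, against 9.22 and 9.15 at day 3 (4.08±0.17), while untreated cells averaged 7.45. VCX, VCX3B and VCX2 differed by 4.27±0.16, 4.06±0.15 and 3.99±0.15. Other probes read 2.40 for VCX3A and 2.08 and 2.04 for VCX2. The VCX genes are near-identical, so these 4 probes may read the same transcripts, which was not tested. MAEL, a gene of the piRNA pathway that silences transposons in germ cells, read 11.49 and 11.48 at day 10, against 8.50 and 8.31 at day 3 (3.08±0.15), with 3.15 on its other probe, and was below background in untreated cells (6.42). DPEP3, a testis dipeptidase gene, read 11.68 and 11.64 at day 10, against 8.28 and 8.57 at day 3 (3.24±0.16). The transketolase relative TKTL1 differed by 3.00±0.16 and the X-linked antigen gene PAGE2B by 1.93±0.17.

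Part of this list was already high at day 3. CTCFL, the germline relative of the insulator protein CTCF, read 11.68 and 11.81 at day 10, against 10.69 and 10.51 at day 3 (1.15±0.14), and untreated cells averaged 6.29, below background. The 5 members that fell were TEX15 (-1.04±0.19), a meiosis gene at 8.56 and 8.77 on day 10 against 9.74 and 9.67 on day 3, CT45A1 (-0.39±0.14), MAGEA11 and DPPA2, which were not above background at day 10, and SPANXC, which was not above background on either day. The promoters of MAEL (chr1:166975332-166975631, plus strand) and CTCFL (chr20:57524648-57524947, minus strand), from RefSeq on GRCh38.p14, are shown with CpG dinucleotides, the sites of methylation, in capitals. MAEL holds 60 CpGs in 300 bases and CTCFL 19, and the median promoter of a gene tested holds 24.
MAEL: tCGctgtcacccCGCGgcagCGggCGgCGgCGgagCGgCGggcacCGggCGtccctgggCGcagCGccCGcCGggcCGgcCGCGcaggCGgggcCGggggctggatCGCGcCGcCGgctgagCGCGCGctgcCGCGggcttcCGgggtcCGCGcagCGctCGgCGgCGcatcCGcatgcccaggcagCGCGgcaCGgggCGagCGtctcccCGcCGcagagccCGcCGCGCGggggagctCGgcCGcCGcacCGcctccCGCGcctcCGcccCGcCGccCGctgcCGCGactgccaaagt
CTCFL: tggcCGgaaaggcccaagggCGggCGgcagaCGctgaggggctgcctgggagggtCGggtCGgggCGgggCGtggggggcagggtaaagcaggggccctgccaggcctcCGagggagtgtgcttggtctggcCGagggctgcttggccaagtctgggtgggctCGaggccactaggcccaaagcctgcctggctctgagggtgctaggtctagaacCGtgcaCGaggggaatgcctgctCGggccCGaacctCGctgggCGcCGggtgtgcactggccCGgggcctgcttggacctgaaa
CpG density varied widely among germline genes that rose at least 2-fold. Over the 20 with a promoter in the reference the median was 13 CpGs and the range 1 to 60, with VCX3A at the low end. These counts say nothing of the methylation state in these cells, which the arrays do not measure.

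Of 25 measured imprinted genes, expressed from 1 parental copy under the control of methylation, 7 were higher (28.0%), 3 lower (12%) and 15 did not pass, and the median was 0.00. These shares are near the 19.3% and 14.8% of all genes, so the genes named next are single genes and not a feature of the list. MEG3, a maternally expressed non-coding RNA, read 9.51 and 9.57 at day 10, against 7.17 and 7.31 at day 3 (2.30±0.17, adjusted p = 1.58e-11), while its other probe read 0.19. DLK1, the paternally expressed gene of the same domain, rose at least 1.56-fold and was not above background at day 3, with 0.19 on its other probe. H19 read 8.03 and 7.98 at day 10, against 8.04 and 8.30 at day 3 (-0.17±0.14, adjusted p = 0.389). The growth factor receptor gene IGF2R (1.17±0.12) and the signalling adaptor gene GRB10 (1.12±0.12, and 0.13 on another probe) also rose.

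**Figure D2:**
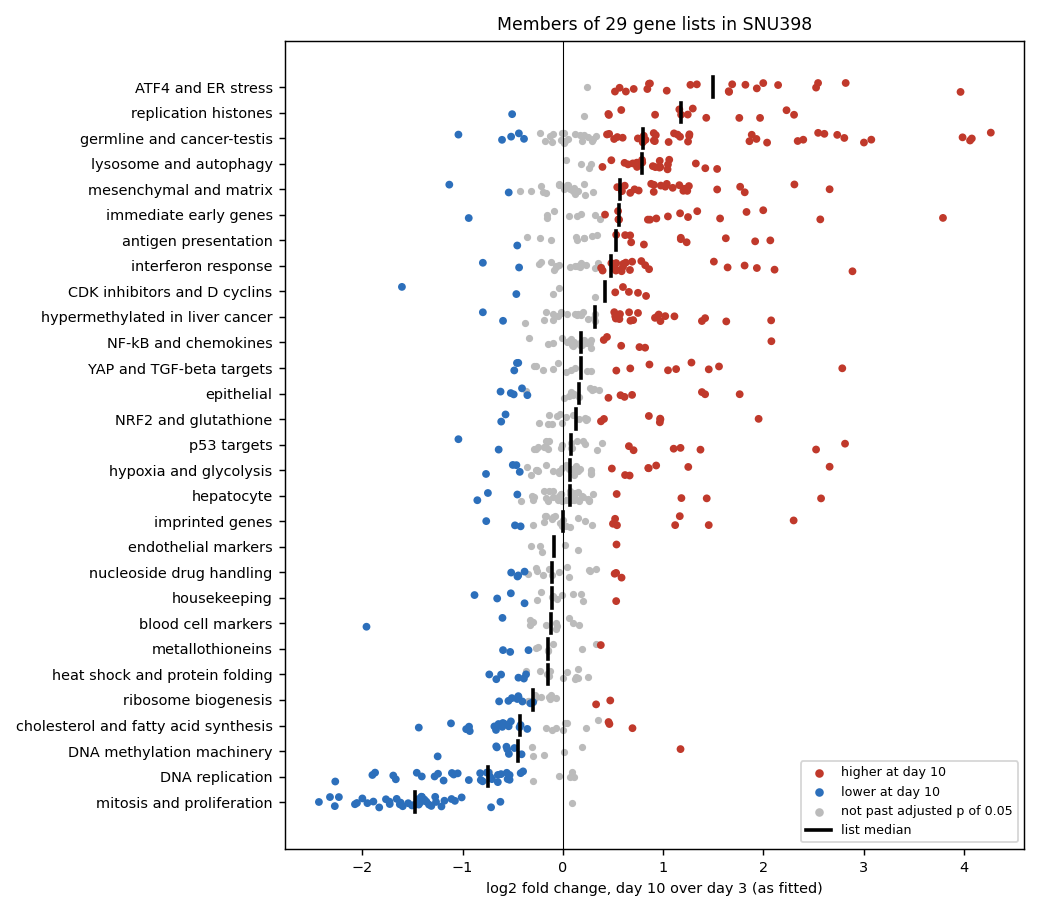
Log2 fold change of day 10 over day 3 for each measured member of the 29 gene lists, red for members higher at an adjusted p under 0.05, blue for members lower and grey for the rest, with a black bar at each list's median. The median runs from 1.50 for ATF4 and endoplasmic reticulum stress genes to -1.48 for mitosis genes, and 38 of 39 mitosis genes are blue.

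The plot of all 29 lists also shows the interferon response, where 23 of 41 measured genes were higher, 2 lower and 16 did not pass, against 19.3% and 14.8% of all genes, and the median was 0.48. ISG15, a ubiquitin-like antiviral protein gene, read 12.52 and 12.50 at day 10, against 10.40 and 10.41 at day 3 (2.11±0.12, adjusted p = 8.77e-14). IFI27 read 9.98 and 9.93 at day 10, against 7.06 and 7.08 at day 3 (2.89±0.14). IFIT1, which binds viral RNA, rose at least 3.51-fold on its brightest probe and read 0.07 on another, and IFI6 differed by 1.94±0.14. The 2 members that fell were XAF1, an apoptosis regulator gene (-0.80±0.15), and IFIT3, which was not above background at day 10. Of the list, 11 members were above background on neither day.

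Antigen presentation genes had 11 of 21 measured members higher, 1 lower and 9 not passing, against 19.3% and 14.8% of all genes, and the median was 0.53. HLA-DMA, which loads peptides on class II molecules, read 11.20 and 11.20 at day 10, against 8.93 and 9.33 at day 3 (2.07±0.12), and the class II chain gene HLA-DPA1 rose at least 2.90-fold. The class I genes HLA-E and HLA-B differed by 1.24±0.11 and 1.18±0.14. The member that fell was PSMB10, an immunoproteasome subunit gene (-0.45±0.13).

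Mesenchymal and extracellular matrix genes showed 23 of 44 measured members higher, 2 lower and 19 not passing, against 19.3% and 14.8% of all genes, and the median was 0.57. LOX, the enzyme that crosslinks collagen, read 9.66 and 10.07 at day 10, against 7.46 and 6.95 at day 3, a rise of at least 6.32-fold (adjusted p = 1.74e-13). The collagen gene COL6A3 read 9.22 and 9.24 at day 10, against 6.97 and 6.87 at day 3. This is a rise of at least 4.78-fold on its brightest probe, and its other probe gave a log2 fold change of 1.58. COL5A1 (1.81±0.16) and the proteoglycan gene BGN (1.77±0.16) rose above a day 3 level that was itself above background. The 2 members that fell were FAP, a fibroblast surface protease gene (-1.13±0.16), and the cadherin gene CDH2 (-0.54±0.14). VIM, the mesenchymal filament gene, was high on both days, at 15.45 and 15.30 on day 10, against 15.24 and 15.42 on day 3 (0.04±0.13, adjusted p = 0.831), and its other probe read -0.15.

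Among 22 measured targets of YAP and TGF-beta, regulators of matrix and growth, 9 were higher (40.9%), 3 lower (13.6%) and 10 did not pass, against 19.3% and 14.8% of all genes, and the median was 0.18. TGFBI, a secreted adhesion protein gene, read 9.89 and 9.84 at day 10, against 7.20 and 6.97 at day 3, a rise of at least 6.90-fold (adjusted p = 1.29e-16). The matricellular genes CCN1 and CCN2 differed by 1.56±0.12 and 1.46±0.13, and ANKRD1, a standard YAP target, rose at least 2.43-fold.

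Lysosome and autophagy genes were higher in 20 of 24 measured members, lower in 0 and not passing in 4, against 19.3% and 14.8% of all genes, and the median was 0.79. PSAP, the precursor of sphingolipid activator proteins, read 15.12 and 14.93 at day 10, against 13.47 and 13.49 at day 3 (1.54±0.14). The lysosomal hydrolase genes GLA and CTSD differed by 1.42±0.12 and 1.06±0.14, and GABARAPL1, of the autophagosome, by 1.33±0.14. Of 22 NRF2 and glutathione genes 7 were higher, 2 lower and 13 did not pass (median 0.13), with the haem-degrading enzyme gene HMOX1 at 12.96 and 12.99 on day 10, against 10.85 and 11.19 on day 3 (1.95±0.14), and the quinone reductase gene NQO1 at 0.97±0.13 (0.19 on another probe).

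Of 10 measured genes on the list of CDK inhibitors and D cyclins, which brake and drive the cycle, 5 were higher, 2 lower and 3 did not pass. CDKN1A, which encodes p21, read 10.04 and 9.97 at day 10, against 9.08 and 9.62 at day 3 (0.66±0.14, adjusted p = 0.000339). CCND1 rose by 0.83±0.12, while CDKN3, a phosphatase gene that is itself expressed with mitotic genes, differed by -1.60±0.15. Of 28 p53 targets, 7 were higher (25.0%), 2 lower (7.14%) and 19 did not pass, near the 19.3% and 14.8% of all genes, and the median was 0.08. Those that rose include SESN2 and GDF15, described above, and TP53INP1 (1.37±0.13), and the largest fall was TP53I3 (-1.04±0.13).

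Cholesterol and fatty acid synthesis genes had 3 of 27 measured members higher, 16 lower and 8 not passing, against 19.3% and 14.8% of all genes, and the median was -0.43. ACAT2, the enzyme at the start of the pathway, read 11.20 and 11.33 at day 10, against 12.60 and 12.81 at day 3 (-1.44±0.13, and -0.78 on another probe), and IDI1 differed by -0.96±0.13. MSMO1 differed by -1.12±0.12, with -1.12 and 0.44 on its other probes. Ribosome biogenesis genes had 2 of 23 higher, 9 lower and 12 not passing (median -0.30), and heat shock genes 0 of 18 higher, 6 lower and 12 not passing (median -0.15). Hypoxia and glycolysis genes had 8 of 32 higher, 4 lower and 20 not passing (median 0.07), with the angiogenic factor gene VEGFA at 1.25±0.17 and LOX shared with the matrix list. Metallothionein and zinc genes had 1 of 11 higher, 3 lower and 7 not passing (median -0.15).

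NF-kB and chemokine genes had 6 of 25 higher (24.0%), 0 lower and 19 not passing (median 0.18), against 19.3% and 14.8% of all genes. CCL2, a chemokine gene for monocytes, read 8.28 and 8.50 at day 10, against 6.44 and 6.18 at day 3, a rise of at least 2.67-fold. The inhibitor gene NFKBIA differed by 0.82±0.11. Nucleoside drug handling genes had 3 of 19 higher (15.8%), 4 lower (21.1%) and 12 not passing (median -0.10), near the shares of all genes. Genes known to be hypermethylated in liver cancer had 19 of 39 higher, 2 lower and 18 not passing (median 0.32). Among them TFPI2, a protease inhibitor gene, rose at least 3.23-fold, the prostaglandin synthase gene PTGS2 at least 2.98-fold (0.16 on its other probe) and the glutathione transferase gene GSTP1 by 0.97±0.13.

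The label of a liver cancer line was set against hepatocyte markers, and most of them were at background. Of 41 measured hepatocyte genes, 28 were above background on neither day, against 2858 of all 15297 genes. In this list 4 were higher (9.76%), 3 lower (7.32%) and 34 did not pass, against 19.3% and 14.8% of all genes. AFP was at background on both days (7.30 and 6.52 at day 10, against 6.95 and 6.73 at day 3), and ALB read 8.61 and 8.61 at day 10, against 8.81 and 9.03 at day 3 (-0.31±0.14, adjusted p = 0.103). The rises were led by APOE, a lipid carrier gene also expressed outside liver, at 12.91 and 12.83 on day 10, against 10.40 and 10.20 on day 3 (2.58±0.12), followed by FTCD (1.44±0.15, and 0.64 on another probe) and CYP2E1 (1.18±0.16), while the liver transcription factor gene FOXA1 differed by -0.85±0.12. Epithelial genes had 7 of 23 higher (30.4%), 5 lower (21.7%) and 11 not passing, against 19.3% and 14.8% of all genes. Of the 23, 12 were above background on neither day. The keratin genes KRT8 and KRT18 were among those at background, EPCAM read 12.03 and 11.88 at day 10, against 12.45 and 12.28 at day 3 (-0.41±0.12), and CDH1 rose at least 2.03-fold.

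Most markers of blood cells and endothelium were above background on neither day. Of 12 measured blood cell markers 0 were higher, 2 lower (16.7%) and 10 did not pass, against 19.3% and 14.8% of all genes. Of the 12, 8 were above background on neither day. The median level was 6.71 and 6.84 at day 10, against 6.87 and 6.84 at day 3. The 2 that fell were CD68 and the haemoglobin gene HBA1. CD68 was well above background, at 10.82 and 10.82 on day 10, against 11.55 and 11.29 on day 3 (-0.60±0.12). Its other probes read -0.39 and -0.06. HBA1 was at 6.73 and 6.89 on day 10, against 8.38 and 9.15 on day 3, a fall of at least 3.46-fold. Of 6 endothelial markers 1 was higher (16.7%), VWF, and 0 were lower. Of the 6, 5 were above background on neither day, VWF among them. Of 14 housekeeping genes 1 was higher (7.14%), 4 lower (28.6%) and 9 did not pass, and the median was -0.11. GAPDH read 14.02 and 14.06 at day 10, against 14.01 and 14.27 at day 3 (-0.10±0.12, adjusted p = 0.567).

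**Figure D3:**
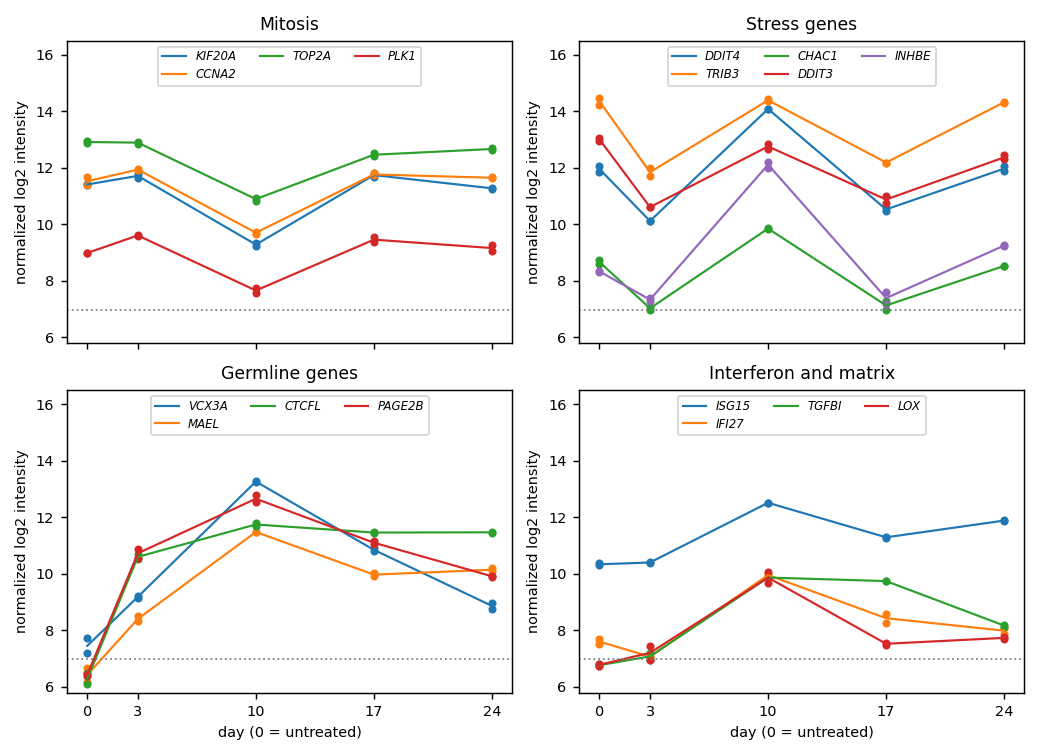
Normalized log2 intensity by day in SNU398 for 4 mitosis genes, 5 stress genes, 4 germline genes and 4 interferon or matrix genes, with a point for each array, a line through the group means, day 0 for untreated cells and a dotted line at the background level. The mitosis genes have their lowest point at day 10, and the stress genes peak there or lie near their untreated level.

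The arrays of other days place the interval within the course of the line, shown for 17 genes. Untreated arrays belong to another set of the deposited values, with medians like those of HepG2. Their levels thus carry any difference between sets, and each comparison shares arrays with the others. KIF20A averaged 11.41 in untreated cells and 11.72 at day 3, was at 9.29 on day 10, and averaged 11.75 and 11.28 at days 17 and 24. The median difference of the mitosis list was 0.14 for day 3 over untreated, -1.39 for day 10 over untreated and 1.41 for day 17 over day 10. For the ATF4 and endoplasmic reticulum stress list these medians were -0.84, 0.42 and -1.0. TRIB3 averaged 14.36 in untreated cells, 11.85 at day 3, 14.39 at day 10, 12.19 at day 17 and 14.32 at day 24, so its day 10 level lay next to the untreated one. INHBE averaged 8.33, 7.34, 12.11, 7.39 and 9.25 over the same 5 groups, with day 10 well above the rest.

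Germline genes followed another course, with list medians of 0.64, 1.30 and -0.45 for the same 3 differences. VCX3A averaged 7.45 in untreated cells, 9.19 at day 3, 13.26 at day 10, 10.85 at day 17 and 8.87 at day 24. CTCFL stayed near its day 10 level, at 11.46 and 11.47 on days 17 and 24. ISG15 averaged 10.34, 10.40, 12.51, 11.29 and 11.89 over the 5 groups. TGFBI averaged 6.77, 7.08, 9.87, 9.74 and 8.17, and LOX averaged 6.78, 7.21, 9.87, 7.53 and 7.73, so day 17 lay near day 10 for TGFBI and near day 3 for LOX.

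HepG2, a line with strong hepatocyte features, was sampled on the same days after the same exposure, and the difference between the 2 lines in their change was tested gene by gene. In HepG2 2353 genes (15.4%) were higher and 1941 (12.7%) lower at day 10. The change was more positive in SNU398 for 1933 genes (12.6%) and more negative for 1624 (10.6%). Mitosis genes fell in both lines, with a median of -1.48 in SNU398 and -2.11 in HepG2, and the change was more positive in SNU398 for 23 of 39 and more negative for 0. KIF20A differed by -2.43 in SNU398 and -2.57 in HepG2, and CKS2 by 0.09 in SNU398 and -1.67 in HepG2 (difference of 1.76, adjusted p = 5.31e-07). Replication histone genes rose in both, with medians of 1.18 in SNU398 and 1.54 in HepG2.

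**Figure D4:**
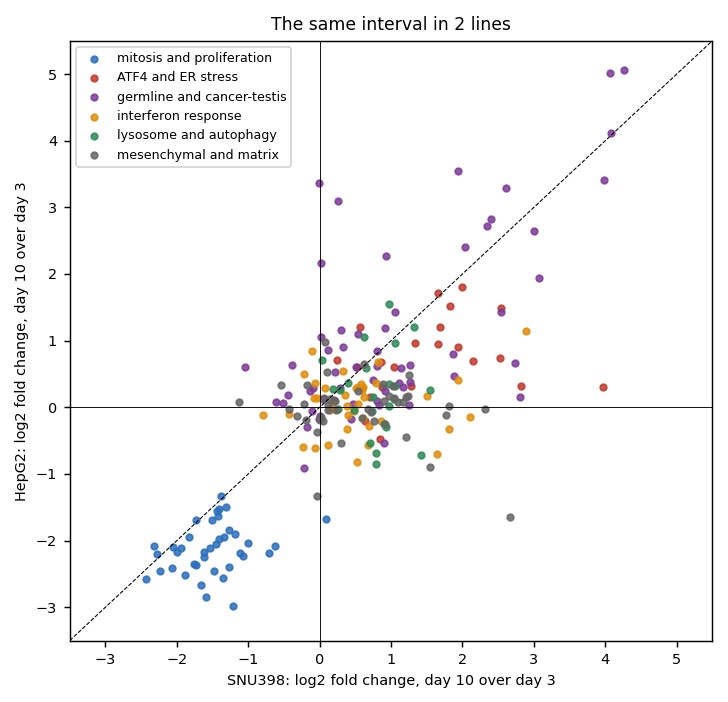
Log2 fold change of day 10 over day 3 in SNU398 (horizontal axis) and HepG2 (vertical axis) for members of 6 gene lists, with a dashed line of equal change. Mitosis genes lie below 0 in HepG2 throughout, and ATF4 and matrix genes lie mostly below the dashed line, with list medians of 1.50 and 0.57 in SNU398 and 0.70 and 0.02 in HepG2.

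The stress, lysosome, matrix and interferon lists had more members with a more positive change in SNU398, as the plot of both lines shows. Over all genes, 12.6% were more positive in SNU398 and 10.6% more negative. For ATF4 and endoplasmic reticulum stress genes the medians were 1.50 in SNU398 and 0.70 in HepG2, with 12 of 22 more positive in SNU398 and 1 more negative. DDIT4 differed by 3.97 in SNU398 and 0.30 in HepG2 (difference of 3.66±0.16, adjusted p = 2.75e-15), while ASNS differed by 1.66 in SNU398 and 1.72 in HepG2 (adjusted p = 0.838 for the difference). Lysosome and autophagy genes had medians of 0.79 in SNU398 and 0.21 in HepG2, with 13 of 24 more positive and 2 more negative. Mesenchymal and matrix genes had medians of 0.57 in SNU398 and 0.02 in HepG2, with 23 of 44 more positive and 3 more negative. Interferon genes had medians of 0.48 in SNU398 and 0.05 in HepG2, with 12 of 41 more positive and 3 more negative, and ISG15 differed by 2.11 in SNU398 and -0.15 in HepG2 (difference of 2.26, adjusted p = 1.11e-10).

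Germline genes had medians of 0.80 in SNU398 and 0.60 in HepG2, with 14 of 61 more positive in SNU398 and 17 more negative. The shares of all genes, for this list and those that follow, were 12.6% more positive and 10.6% more negative. VCX3A differed by 4.08 in SNU398 and 4.11 in HepG2. The cancer-testis genes GAGE12C, GAGE12F and GAGE12B were near the top of the scale on both days in SNU398, at means of 15.61, 15.35 and 15.62 on day 10, and rose in HepG2, so any further rise in SNU398 could not be read. Metallothionein and zinc genes had medians of -0.15 in SNU398 and -1.49 in HepG2, with 8 of 11 more positive in SNU398 and 1 more negative. Cholesterol and fatty acid synthesis genes had medians of -0.43 in SNU398 and -0.95 in HepG2, with 12 of 27 more positive and 0 more negative. Ribosome biogenesis genes had medians of -0.30 in SNU398 and 0.22 in HepG2, with 0 of 23 more positive and 10 more negative.

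The rule that names the 6 most positive fitted differences gave LOX, HAMP, SGK1, DDIT4, KANK4 and PLCXD1, with no order read from them. LOX rose at least 6.32-fold in SNU398 and differed by -1.6 in HepG2. SGK1, a kinase gene of salt and stress signalling, read 10.09 and 10.11 at day 10, against 7.58 and 7.09 at day 3 in SNU398 (2.77±0.14), and differed by -1.32 in HepG2, although 1 of its other 3 probes read -0.14 in SNU398. KANK4, a cytoskeletal regulator gene, differed by 2.39±0.13 in SNU398 and -1.17 in HepG2. PLCXD1, a phospholipase-like gene, differed by 3.13±0.12 in SNU398 and -0.38 in HepG2. HAMP, the iron hormone hepcidin, was at background in SNU398 on both days, so no change could be measured there, and differed by -4.13 in HepG2. The 6 most negative fitted differences were those of the 3 GAGE12 genes, near the top of the scale in SNU398, and of IGFBP1, ADH1A and PLG, liver genes at background there on both days. For none of these 6 could a change in SNU398 be measured, so they show what HepG2 did and no size of a difference between the lines. In HepG2 IGFBP1 differed by 4.32 and PLG by 3.82, and ADH1A, an alcohol dehydrogenase gene, rose too and was not above background at day 3.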

How the data were processed

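Total RNA was labelled with biotin and measured on Illumina arrays, 34 in 17 groups of 2. The deposited values are linear probe intensities, and the sources used here do not give how the authors normalized these intensities. The deposited medians fall into 3 sets, and the treated SNU398 arrays share 1 of them (172.65 to 172.73), while untreated SNU398 and HepG2 share another. A second deposited table, of 72 columns named by barcode, could not be matched to samples and was not used.

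Background was corrected by limma's normal-exponential model (offset 50) and log2 values were quantile normalized over all 34 arrays. The background level of 6.974 is the mode of the mean array, 6.484, plus 1.645 times the spread of 0.298 below it. Of 47230 probes, 30113 have 1 gene symbol, 8 several and 17109 none in the annotation. Probes had to be above background in 1 group or more, which left 29365, and each of 15297 genes was represented by its brightest probe. The symbols were updated through RefSeq of GRCh38.p14.

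One model with a mean for each group was fitted with limma 3.58.1 (R 4.3.3) (17 residual and 10.9 prior degrees of freedom) and tested on simulated data. A fold bound is the mean of the brighter day over the higher of the background level and the dimmer day's mean. Where the dimmer day's mean is the higher, as for LOX, TGFBI, CHAC1, IFIT1 and ANKRD1, the bound equals the fitted fold. The number of arrays, 2 a group, limits the precision. Replicate arrays correlated with r of 0.9947 at day 10 and 0.9916 at day 3 across genes, which are not independent replicates. Same-numbered arrays of days 10 and 3 did not deviate together (r = -0.0918), so no shared replicate effect was seen. This cannot show whether equal numbers mark the same culture, which the labels do not say.

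The members, the gene lists and the tests were chosen with earlier results of these data known. Genes named are the 15 largest rises and falls with no overlap of arrays, up to 4 called members of each list with the largest change, a fixed set, and the 6 most positive and 6 most negative differences from HepG2. ASNS, CCNB2, CDH2, CKS2, CT45A1, DPPA2, DUSP6, EPCAM, FAP, H4C3, HSPA5, IFIT3, KRT18, KRT8, MAGEA11, PLK1, PSAT1, PSMB10, SHMT2, SLC7A11, SPANXC, TEX15, TP53I3 and XAF1 fall outside this rule and were chosen after their values were seen. Alternatives covered normalization, offset, filters, probe choice, the arrays in the fit, leaving out each replicate and a replicate block.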

Additional observations from a re-analysis of the deposited data

Results flagged for a closer look

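Named genes are listed here where the change of day 10 over day 3 differed between SNU398 and HepG2 in limma's test of the difference (SNU398 minus HepG2, n = 2 arrays in each of the 4 groups, Benjamini-Hochberg adjusted p under 0.05). The difference of log2 fold changes was 2.88 for INHBE, 3.66 for DDIT4, 2.31 for JUN and 2.80 for NUPR1, all stress-inducible genes. It was 3.51 for PLCXD1, 1.75 for IFI27, 4.08 for SGK1 and 3.56 for KANK4. It was negative for MIR599 (-2.36) and PIMREG (-0.62). JUN is on the immediate early list, whose medians were 0.56 in SNU398 and 0.69 in HepG2. Of its 25 measured members, 5 were more positive in SNU398 and 9 more negative, against 12.6% and 10.6% of all genes. For a gene that was at background in any of the 4 groups compared, or near the top of the scale in SNU398, the adjusted p of the difference stands in place of its size. It was 3.93e-14 for LOX, 1.55e-11 for HAMP, 2.22e-09 for CHAC1, 4.3e-10 for RFPL4B, 4.95e-07 for DPEP3 and 0.000213 for MAEL, all more positive in SNU398. It was 0.0111 for VCX, 0.00126 for VCX3B, 5e-10 for NBEAP1, 4.7e-11 for IGFBP1, 3.22e-09 for ADH1A, 1.98e-12 for PLG, 1.51e-12 for GAGE12C, 4e-12 for GAGE12F and 1.3e-11 for GAGE12B, all more negative in SNU398. Signals of the GAGE genes in SNU398 stood near the top of the scale on both days, and IGFBP1, ADH1A, PLG and HAMP were at background there, so no change in SNU398 could be measured for these 7 genes.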

How the results depend on the processing

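No named gene called in the comparison of days changed direction under the alternatives run, and the direction of other genes was not compared. Some named genes not called there changed direction, all near 0, at background or near the top of the scale. VIM read -0.053 with the mean of its probes, GAGE12C 0.016 on log2 of the deposited intensities and 0.015 with median scaling, and PLG 0.00085 with an offset of 16. Leaving out each replicate gave -0.037 to 0.72 for ADH1A, -0.32 to 0.46 for AFP, -0.084 to 0.016 for GAGE12B, -0.045 to 0.025 for GAGE12C, -0.46 to 0.083 for GAGE12F, -0.23 to 0.035 for GAPDH, -0.14 to 0.27 for HAMP, -0.094 to 0.091 for PLG and -0.047 to 0.13 for VIM. List medians near 0 also changed sign under at least 1 alternative, for the endothelial, hepatocyte, imprinted, metallothionein, nucleoside drug and p53 lists. The number of genes at least 2-fold higher was 466, with 269 lower, and 648 and 354 with an offset of 16, and 466 became 304 on log2 of the deposited intensities with the offset and no further normalization (181 lower) and 242 among probes above background on all 34 arrays, which tests fewer genes. Leaving out each SNU398 array in turn gave 2209 to 2601 genes higher, 1578 to 2028 lower, 472 to 542 at least 2-fold higher, 257 to 353 at least 2-fold lower and 350 to 375 list members called (397 with all arrays). Leaving out each array of either line gave 1513 to 1825 genes more positive in SNU398 than in HepG2 and 1198 to 1611 more negative. In these fits the lone array of a group is assumed to vary like the other groups. Higher genes made up 53.2% to 58.6% of those called (56.6% as reported). A replicate block was also fitted, although the labels do not say that equal numbers pair arrays. It gave 2909 genes higher, 2217 lower and 393 list members called, with 1886 more positive and 1560 more negative differences. It ended the call of 1 named gene, SLC30A1 (adjusted p = 0.0572), and changed no other call among named genes. Under at least 1 alternative, calls were also lost for DNMT1, DNMT3A, CXCL8, HSPA4, HSPE1, MT1E, MT1G, MT3, NOP2 and VWF. A call was gained for ALB with the mean of probes (adjusted p = 0.0185) and for GAGE12F without day 3 replicate 2. Among 54 named genes with another probe that passed the background filter, 7 had 1 of opposite sign (ACTB, HSPA4, MSMO1, MT1E, NOP2, SGK1 and VIM). Dim genes are limited by background, and 2858 genes were above it on neither day.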

Other observations

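Genes of the X chromosome were at least 2-fold higher in 41 of 606 tested (6.77%), against 3.05% of all genes, with chromosome 6 next at 4.24%. Of the 41, 18 are on the list of germline and cancer-testis genes. Off that list 23 of 567 X-linked genes (4.06%) were at least 2-fold higher. These are descriptions with no test, and the list was chosen with results of these data known. Among the 23 are BGN and GLA, described above.

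CYBA, a subunit gene of the phagocyte NADPH oxidase, and CRIP1, a small LIM-domain protein gene, were both below background in untreated SNU398. CYBA read 11.97 and 11.74 at day 10, against 11.23 and 11.24 at day 3 (0.62±0.13, limma adjusted p = 0.00034). CRIP1 read 11.64 and 11.58 at day 10, against 10.99 and 10.99 at day 3 (0.62±0.17, limma adjusted p = 0.00645). Most of the distance from the untreated averages of 6.92 and 6.87 was thus present at day 3.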
